A study of Mus musculus with 4 samples.

Results

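RNA sequencing of the prelimbic cortex, a medial prefrontal area that regulates responses to threat and social stress, was compared between 1 library from stress-susceptible mice and 1 library from control mice. These are 2 of the 4 libraries of the series and were chosen by their labels: every gene in the authors' table of the stress experiment was taken, and its susceptible column was set against its control column. The mice were C57BL/6 aged 8 weeks, and no allele, transgene or drug is named for either group. Chronic social defeat is a model in which a mouse is repeatedly exposed to an aggressor, and animals that avoid social contact afterwards are classed as susceptible. The stress tag is carried by the control library as well as by the susceptible one, so what the control animals experienced is not clear from the labels. Whether a library held 1 mouse or a pool is also not stated. The other 2 libraries, from mice given adeno-associated virus (AAV) expressing green fluorescent protein (GFP) or the chromatin corepressor CDYL, are used below only as a second pair to look at the same genes.

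Social defeat activates the hypothalamic, pituitary and adrenal axis, and the glucocorticoids it releases act on neurons, glia and vessels through the glucocorticoid receptor, a transcription factor that binds DNA. Neuronal firing switches on immediate early genes within minutes, and their messages decay quickly. Oligodendrocytes wrap axons in myelin, a membrane rich in cholesterol, while microglia, astrocytes and endothelial cells respond to cytokines and to interferon with distinct sets of induced genes. Levels are given as FPKM, a fragment count divided by transcript length and library size. Bulk tissue was measured, so fewer cells of a type and less RNA per cell cannot be told apart. Nrgn, a gene of cortical projection neurons, was present in both libraries, at 870 FPKM in control and 656 in susceptible, while Slc17a7 and Camk2a are not listed in this table.

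The table lists 12318 genes, all of them at least 1.25-fold apart where both values are above 0, so an absent gene carries no value here and is not thereby shown to be alike. Of these, 4915 had a mean of at least 1 FPKM over both libraries, which is the filter used below. Where a gene list is given only by its genes past the filter, its other members were either not listed or under the filter. The size rule calls a gene higher or lower once its log2(FPKM + 1) values are 1.5-fold apart. By that rule 860 genes (17.5%) had higher values in susceptible and 515 (10.5%) had lower ones. These shares are the background for counts of higher and lower genes past the filter. Centred on the median difference of 0.21 the split became 469 higher and 1567 lower, and at a common upper quartile, a shift of 0.13, it became 1193 and 306. The 1.25-fold gap empties the middle of the distribution, which places the median over all genes at 0.21 and that over the 4201 protein-coding genes at -0.23. No list of at least 5 genes changed the sign of its median under either scaling. There were 393 genes past the filter but under 1 FPKM in control, and 151 such in susceptible. A gene of the first kind can only lie above control, so counts over genes at 1 FPKM or more in both libraries are given where they matter. Over all 4371 genes at that level 627 were higher and 446 lower, which is the background for those counts. For counts above or below control the background is 50.8% of genes past the filter above control, and 49.5% of protein-coding ones. Ratios of single genes are of FPKM itself, while list medians are on the log2(FPKM + 1) scale, which understates the difference of low genes. Effective depth, taken from the spacing of low FPKM values, was 14300000 fragments in control and 23000000 in susceptible, so FPKM 1 in a transcript of 2 kb was backed by about 28.6 and 46 fragments. Genes whose locus in the authors' table holds a second listed gene are marked as sharing it, since fragments cannot be assigned there with certainty; Aldh1l1, Alas2, Cables1, Ccnd1, Cx3cr1, Nmb, Pdgfra, Slc2a1 and Ttr also share one. Intervals beside ratios are 95% exact binomial limits from this depth and cover counting error only, since there is no replicate.

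**Figure D1:**
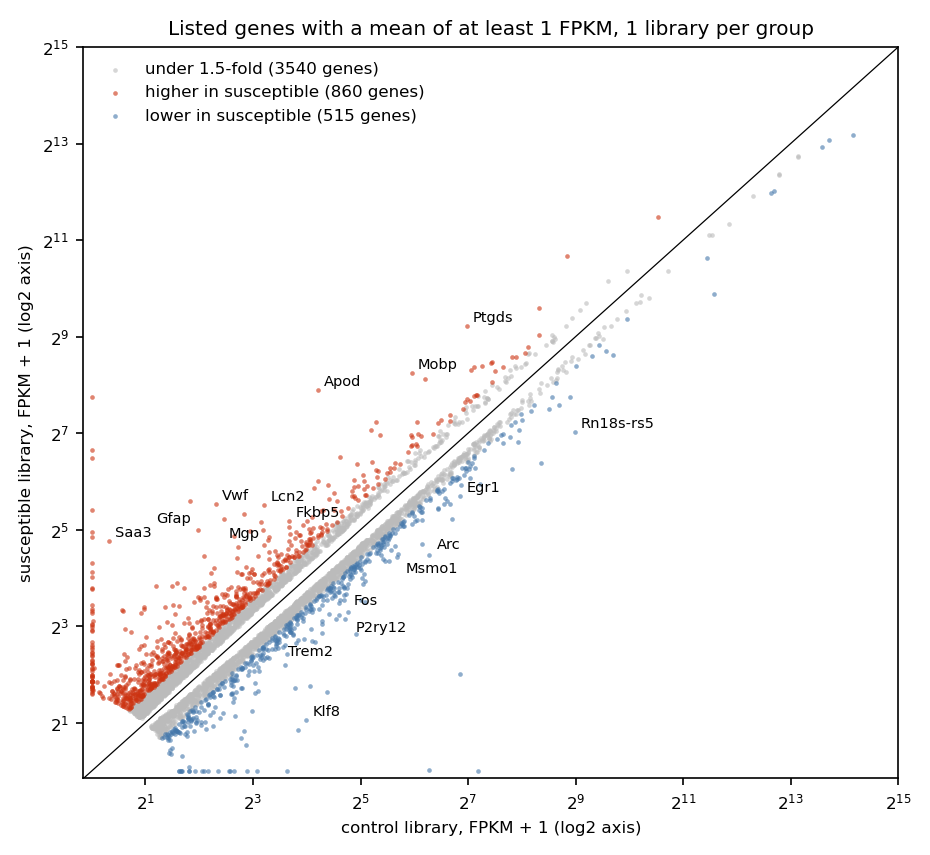
Each point is 1 of the 4915 genes past the filter, by its FPKM + 1 in the control library (x) and the susceptible library (y), both on log2 axes; red marks the 860 higher genes, blue the 515 lower genes, grey the genes under 1.5-fold, and the black line equality. The empty band along the line holds the genes under 1.25-fold, which the table does not list, and Apod, Vwf, Gfap and Saa3 lie far above it while Arc, Trem2 and Klf8 lie below.

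Among genes with a proper name, leaving out Gm and Rik numbers, at a mean of at least 5 FPKM, the largest difference on the log2(FPKM + 1) scale was Saa3, an acute-phase serum amyloid, at 0.251 FPKM in control and 26.1 in susceptible. Its control value rests on very few fragments, so the ratio of 104 had limits of 23.5 and 5250. Rn7s6, a small non-coding RNA, was listed at 0 and at 18.9 FPKM. Glb1l, a galactosidase-like gene in a locus that holds a second listed gene, stood at 2.58 and 47.2. Apod, a lipid-carrying lipocalin secreted by glia (chromosome 16), stood at 17.4 and 237, a ratio of 13.6 (11.8 to 15.6). Vwf, the von Willebrand factor stored by endothelial cells (chromosome 6, 125546774 to 125686679 in mm10), stood at 3.98 and 45.3, a ratio of 11.4 (9.25 to 14.3). The other genes among the 12 largest rises were Gfap, Mgp, Ltf, Chil3, Lrg1, Ngp and Ddc, most of which belong to the groups below. Ddc, the decarboxylase that makes dopamine and serotonin, rose from 1.83 to 13.3 FPKM, although Th, which makes its substrate in dopamine neurons, was at 0.998 and 1.51 and the vesicular transporter Slc18a2 at 1.41 and 0.851.

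In the other direction the photoreceptor gene Pde6h was at 76.8 FPKM in control but 0.0195 in susceptible, and its locus holds a second listed gene. Klf8, a Krüppel-like transcription factor (chromosome X, 153237466 to 153396132), stood at 14.9 and 1.09 FPKM, 13.7-fold lower (11.2 to 16.9). Ttf1, a termination factor of ribosomal DNA transcription, stood at 15.7 and 2.38, and Pou2f1, an octamer-binding transcription factor in a shared locus, at 12.7 and 2.31. The ribosomal RNA gene Rn18s-rs5 stood at 506 and 128 FPKM. Arc, Fos, P2ry12, Trem2, Fsd1l, and Stxbp6 and the microRNA gene Mir1897, both in shared loci, completed the 12 largest falls among genes with a proper name. Of these genes Arc, Fos, P2ry12 and Trem2 belong to lists described below.

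Genes of mature oligodendrocytes and myelin were higher in the susceptible library. Of 45 genes in the list, 39 were listed and 36 passed the filter, of which 28 were higher and 1 lower, with a median difference of 0.96. With at least 1 FPKM in both libraries 34 remained, again 28 higher and 1 lower. Mbp, the myelin basic protein that compacts the membrane, rose from 320 to 768 FPKM, a ratio of 2.40 (2.21 to 2.61), in a locus shared with another gene. Larger ratios were found in other structural genes: Mobp at 60.9 and 303 (4.31 to 5.80), Mal at 23.4 and 89.5 (3.07 to 4.78), Cldn11 at 16.6 and 57.5 (3.11 to 3.86), and Hapln2, a link protein of nodes of Ranvier, at 1.99 and 13.8 (5.07 to 9.72). Myrf, the transcription factor that drives myelin genes, rose from 2.75 to 10.3 FPKM, and Sox10, a lineage transcription factor, from 6.18 to 12.9. The member called lower was Tppp, a tubulin-polymerizing protein, at 255 and 153 FPKM. Ninj2 was also below control, at 1.56 and 0.752, but under the size rule. Summed over its listed members, the list reached 1100 FPKM in control against 2200 in susceptible.

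Earlier stages of the lineage differed less. Of 18 precursor genes 8 were listed, all past the filter. None of these was called in either direction, although 7 were above control, with a median of 0.42. Pdgfra, the growth factor receptor that defines precursors, stood at 8.40 and 11.8 FPKM, a ratio of 1.41 (1.23 to 1.61), and Olig1, a lineage transcription factor, at 25.3 and 37.0. Ccnd1, a cyclin of dividing cells, was below control at 17.8 and 13.3. Of 16 genes of newly formed oligodendrocytes 9 were listed and 7 passed the filter, of which these 3 were higher. Tcf7l2, a Wnt effector of maturation, stood at 0.634 and 2.72. Slc44a1, a choline transporter, stood at 11.3 and 19.8 and Bcas1, a marker of early myelination, at 15.7 and 25.7, both in shared loci. The precursor list summed to 61.8 and 77.1 FPKM. Whether mature and precursor genes differ from each other in this was not tested.

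Cholesterol synthesis went the other way. Of 26 genes of synthesis and uptake, 16 were listed and 15 passed the filter. Of these 7 were lower, 1 was higher and 14 were below control (median -0.58). Hmgcs1, which makes the precursor of mevalonate, fell from 131 to 79.3 FPKM. Idi1, which isomerizes the isoprenoid unit, fell from 24.8 to 11.4, a ratio of 0.462 (0.420 to 0.509). Cyp51, the lanosterol demethylase, in a shared locus, stood at 26.2 and 13.7. Msmo1, the sterol methyl oxidase that acts after it (chromosome 8, 64718139 to 64733792), stood at 50.6 and 21.5, 2.35-fold lower (2.16 to 2.56), with a q of 0.0384 in the authors' deposited table. The only member above control was Srebf1, the sterol-responsive factor more closely tied to fatty acid synthesis, at 7.89 and 14.4 in a shared locus, while Srebf2, which controls the cholesterol genes themselves, stood at 58.8 and 46.3. The list summed to 608 FPKM in control and 402 in susceptible. The promoter of Hmgcs1 is shown because its sterol regulatory element is the one match in this list. The 250 bases before the RefSeq start (GRCm38.p6, chr13:119690101-119690350, plus strand) are printed with the letters TCACNCCAC, searched on both strands, in capitals; the match begins 137 bases before the start.
Hmgcs1: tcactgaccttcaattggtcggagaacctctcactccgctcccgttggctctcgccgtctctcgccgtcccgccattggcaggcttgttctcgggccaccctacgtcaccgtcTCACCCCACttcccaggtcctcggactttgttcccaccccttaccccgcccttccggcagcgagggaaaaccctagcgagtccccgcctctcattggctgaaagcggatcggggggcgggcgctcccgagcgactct
Of 18 list genes with a RefSeq promoter 1 held these letters (5.56%), against 1.22% of 27025 genes. A match is a description of the letters only.

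**Figure D2:**
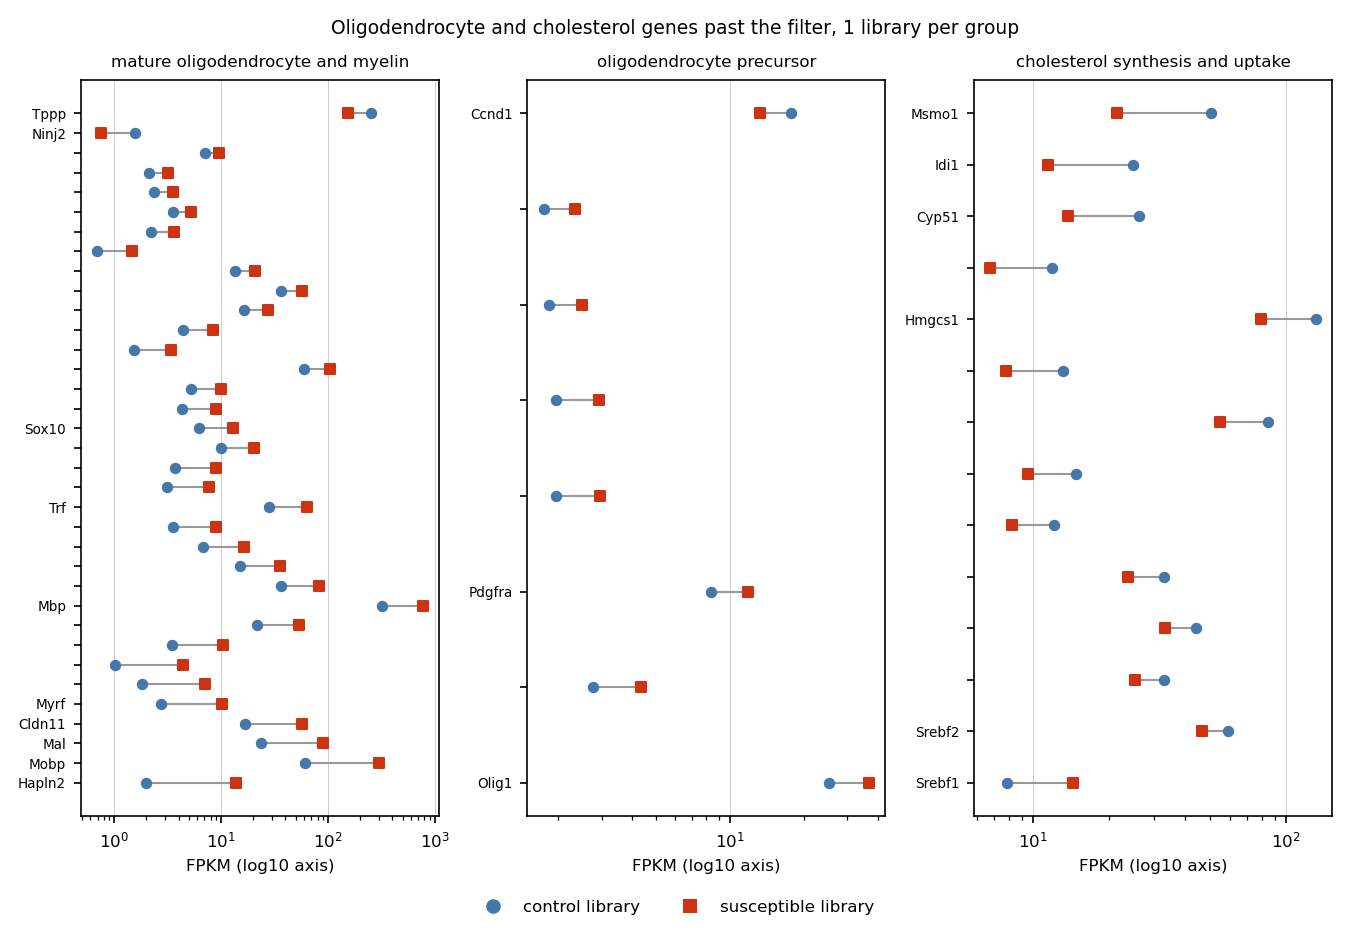
FPKM (x, log10 axis) of each gene past the filter in the control library (blue circles) and the susceptible library (red squares), joined by a line, in 3 panels ordered by difference; genes named in the text are labelled, and a few genes are not shown. In the myelin panel every square shown except those of Tppp and Ninj2 lies to the right of its circle, in the precursor panel 7 of 8 do, and of the cholesterol genes shown only Srebf1 does.

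Other lipid carriers and vascular genes were also high in the susceptible library. Ptgds, a lipocalin and prostaglandin D synthase, rose from 125 to 592 FPKM, a ratio of 4.75 (4.45 to 5.08), and Lcn2, an iron-sequestering lipocalin of inflammation, from 8.27 to 44.4. Rbp4, a retinol carrier, stood at 23.2 and 15.2. Of 34 endothelial and blood-brain barrier genes, 24 were listed and all 24 passed the filter, with 14 higher, 0 lower and a median of 0.64. The Ly6 surface proteins of this list led after Vwf: Ly6c1 stood at 40.1 and 124 FPKM (ratio 2.64 to 3.65), Ly6c2 at 3.63 and 16.2, and Ly6a at 20.1 and 59.6. Pecam1, an adhesion protein of all endothelium, rose from 4.22 to 8.22, and Slc2a1, the glucose transporter of the barrier, from 28.8 to 49.8. Cldn5, the barrier claudin, was under the rule at 23.02 and 34.3. Kdr, the main receptor of vascular endothelial growth factor, stood below control at 2.67 and 1.54, so the list did not move as 1 block.

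Of 9 genes of endothelial activation past the filter 4 were higher, but all 4 were under 1 FPKM in control, and none of the 4 genes at 1 FPKM or more in both libraries was called. Lrg1, a glycoprotein of inflamed vessels, stood at 0.960 and 9.28, Ch25h, the cholesterol 25-hydroxylase, at 0.661 and 6.33 in a shared locus, and Icam1, the leukocyte adhesion receptor, at 0.884 and 3.14. Vcam1, a second adhesion receptor, was at 5.54 and 4.10. Smooth muscle genes were low in control: Acta2, smooth muscle actin, stood at 0.515 and 4.34 and Tagln, in a shared locus, at 0.838 and 3.04, while the pericyte receptor Pdgfrb stood at 2.43 and 3.77. In the meningeal and fibroblast list 16 of 20 genes were listed and 4 passed the filter, 2 of them higher. These were Mgp, the matrix Gla protein of vessel walls, at 4.52 and 36.1, a ratio of 7.99 (5.38 to 12.3), and Igf2, a growth factor of meninges and vessels, at 2.54 and 5.28. Among 16 collagens, laminins and matrix proteins 5 were higher and 0 lower, led by Spp1, Sparc and Fn1. Sparc, a collagen chaperone of vessels and glia, rose from 60.6 to 123 FPKM. Of 10 listed choroid plexus genes 0 passed the filter, with a summed level of 1.05 and 1.91 FPKM and Ttr listed at 0 and at 0.211. Of 11 listed ependymal and cilia genes 3 passed it and 1 was higher, Rarres2, which encodes chemerin, at 1.68 and 5.34 FPKM, and the list summed to 21.6 and 26.4.

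Astrocyte genes of reactive states were higher, and most listed identity genes were above control. Of 30 reactive genes 24 were listed and 14 passed the filter, with 9 higher and 0 lower; over the 11 at 1 FPKM or more in both libraries, 6 were higher. Gfap, the intermediate filament of astrocytes, stood at 2.92 and 31.0 FPKM, in a locus shared by 4 listed genes. Vim, a second filament protein, in a locus of its own, rose from 6.69 to 30.5 FPKM, a ratio of 4.56 (3.84 to 5.43). Serpina3n, a secreted protease inhibitor, rose from 5.27 to 28.3 (4.49 to 6.41). Cd44, a hyaluronan receptor often raised in reactive astrocytes, stood at 1.91 and 1.45. Of 25 identity genes 11 were listed, all past the filter. Of these 9 were above control, with 4 higher, 1 lower and a median of 0.54. Aldoc rose from 276 to 443 FPKM and Ndrg2 from 179.5 to 311. Gjb6, the connexin that couples astrocytes, rose from 17.4 to 63.0 FPKM (3.28 to 3.99), whereas Slc7a10, an amino acid transporter, fell from 11.9 to 7.08 and Aqp4, the water channel of endfeet, stood at 9.87 and 6.36. Aldh1l1, an astrocyte-wide enzyme, stood at 12.8 and 17.9.

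Microglial genes of the homeostatic list were mixed. Of 21 past the filter 6 were lower, 3 were higher and 8 were above control. The list median of -0.32 became 0.29 at a mean of at least 5 FPKM. P2ry12, the ADP receptor of surveying microglia, fell from 25.4 to 7.85 FPKM, in a locus shared by 6 listed genes. Trem2, a lipid-sensing receptor, fell from 18.4 to 6.28, 2.93-fold (2.33 to 3.66), and Siglech, a microglial lectin, from 9.64 to 4.77, 2.02-fold (1.46 to 2.82). Gpr34, Slc2a5 and Fcrls were the other 3 that were lower, and Tmem119 and Cx3cr1 stood below control at 9.72 and 7.19 and at 12.5 and 9.07. Higher were Fcgr3, an immunoglobulin receptor, at 8.87 and 17.3, Laptm5, a lysosomal protein, at 9.31 and 16.5, and Ctss, a lysosomal protease, at 33.4 and 51.5. C1qa and C1qb, which microglia secrete as the first component of complement, were above control at 41.0 and 55.3 and at 37.4 and 49.9. The summed level of the homeostatic list was 287 and 302 FPKM, a smaller gap than those of its leading members. Of 11 genes of activated microglia and perivascular macrophages 6 were higher and 0 lower, and of the 8 at 1 FPKM or more in both libraries 4 were higher. Cd68, a lysosomal glycoprotein, rose from 3.46 to 7.84 and Spp1, osteopontin, from 1.31 to 5.47 in a shared locus, while the chemokines Ccl3 and Ccl4 were listed at 0 in control and at 2.33 and 2.24.

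Blood cell genes moved in opposite directions. Of 24 neutrophil genes 23 were listed and 14 passed the filter, with 12 higher and 0 lower; 7 of the 14 were under 1 FPKM in control, and of the 7 at 1 FPKM or more in both libraries 5 were higher. S100a8 and S100a9, calcium-binding proteins abundant in neutrophil cytosol, rose from 38.02 to 149.7 FPKM (ratio 3.31 to 4.68) and from 35.5 to 133 FPKM (3.16 to 4.46). Of the granule genes, Ngp rose from 3.27 to 20.9, Ltf, lactoferrin, from 1.29 to 13.2, and Camp, cathelicidin, was listed at 0 and at 2.86. The list summed to 89.7 and 356 FPKM. Red cell genes were below control: Hba-a1 and Hba-a2, the alpha globins, fell from 247 to 132 and from 362 to 180.3 FPKM, and the beta globins Hbb-bs and Hbb-bt stood at 156 and 120.4 and at 106 and 83.6. Alas2, an erythroid enzyme of heme synthesis, was at 1.16 and 2.03. The erythroid list summed to 873 and 519 FPKM. Of 10 listed lymphocyte genes 2 passed the filter, Igkc, an immunoglobulin light chain listed at 0 and at 3.92, and Ighm, the heavy chain of immunoglobulin M, at 5.92 and 2.29; Cd3e was not listed.

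Cytokine and chemokine genes were mostly at or near 0 in the control library. Of 37 genes 33 were listed and 14 passed the filter, with 7 higher and 1 lower, but all 7 were under 1 FPKM in control, and of the 6 with at least 1 FPKM in both libraries 0 were higher and 1 lower. Ccl2, a monocyte chemokine, was listed at 0 and at 2.57 FPKM, Cxcl2, a neutrophil chemokine, at 0 and at 4.54, Ccl12 at 0 and at 2.37, and Cxcl10, a chemokine induced by interferon, at 0 and at 5.38 in a shared locus. At 3 fragments a transcript of 2 kb would reach 0.105 FPKM in control, and a shorter one, as most chemokines have, would reach more. Nfkbia, the feedback inhibitor of NF-kappa-B, stood at 11.6 and 16.3, Il18 at 4.08 and 6.26 and Csf1, a growth factor of microglia, at 3.30 and 5.36, all under the size rule. Cxcl12, a constitutive chemokine of vessels and meninges, fell from 43.8 to 25.1 FPKM. On the receiving side 7 of 13 receptors and signalling genes were higher and 0 lower, and 5 of the 11 at 1 FPKM or more in both libraries. They included Tnfrsf1a, a receptor of tumour necrosis factor, at 1.99 and 5.46, Cd14, the co-receptor of lipopolysaccharide, at 1.20 and 4.55, Socs3, an inhibitor of cytokine signalling, at 1.49 and 3.83, and Stat3, which interleukin 6 activates, at 11.8 and 20.8 in a shared locus.

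Promoters of 2 chemokines are shown because both genes were listed at 0 in control and carry the kappa-B site that binds NF-kappa-B. The windows are the 250 bases before the RefSeq start (GRCm38.p6), read 5′ to 3′ on the gene's strand, Cxcl10 at chr5:92348890-92349139 (minus) and Cxcl2 at chr5:90903649-90903898 (plus). Capitals mark the matches, which begin 159 and 103 bases before the start in Cxcl10 and, overlapping, 97 and 96 bases before it in Cxcl2.
Cxcl10: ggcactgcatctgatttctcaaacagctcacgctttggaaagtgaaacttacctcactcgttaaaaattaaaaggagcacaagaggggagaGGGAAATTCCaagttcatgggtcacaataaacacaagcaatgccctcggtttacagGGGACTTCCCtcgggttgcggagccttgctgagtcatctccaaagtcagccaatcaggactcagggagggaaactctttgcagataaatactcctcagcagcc
Cxcl2: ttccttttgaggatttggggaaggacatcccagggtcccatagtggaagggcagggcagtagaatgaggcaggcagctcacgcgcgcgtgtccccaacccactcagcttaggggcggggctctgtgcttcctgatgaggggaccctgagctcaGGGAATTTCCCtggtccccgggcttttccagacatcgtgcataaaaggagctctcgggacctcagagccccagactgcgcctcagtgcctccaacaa
Searched on both strands, the site was present in 11 of 27 cytokine list genes with a promoter (40.7%) and in 4.46% of 27025 genes. Of the 5 higher genes with a promoter 2 held it.

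Interferon-induced genes were higher, at low levels. Of 39 genes 30 were listed and 19 passed the filter, with 13 higher, 0 lower and a median of 0.89; over the 13 at 1 FPKM or more in both libraries 8 were higher. Ifitm3 and Ifitm2, membrane proteins that block viral entry, rose from 8.79 to 27.8 FPKM (ratio 2.39 to 4.24) and from 5.49 to 20.4 (2.57 to 5.39). Irgm1, an immunity-related GTPase, rose from 3.28 to 11.2, and Iigp1, of the same family, from 0.170 to 2.41. Isg15, a ubiquitin-like modifier, stood at 0.268 and 3.03. Among 11 antigen presentation genes past the filter 6 were higher and 0 lower, and of the 8 at 1 FPKM or more in both libraries 3 were higher. H2-K1, a class I heavy chain, rose from 10.2 to 18.4, Psmb8, an immunoproteasome subunit in a shared locus, from 1.67 to 4.47, and Cd74, the class II invariant chain, from 0.952 to 5.12. H2 genes are close paralogs, so their fragments cannot be assigned with certainty. Of 6 complement genes 2 were higher, C4b at 0.530 and 6.66 and Serping1, the C1 inhibitor, at 0.634 and 1.99, both under 1 FPKM in control. None of the 4 at 1 FPKM or more in both libraries was called.

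The Isg15 and Ifitm2 promoters are shown because they hold the interferon-stimulated response element, here GAAA, any 2 bases and GAAA again, on either strand and in capitals. The windows are the 250 bases before the RefSeq start (GRCm38.p6), Isg15 at chr4:156200819-156201068 (minus) and Ifitm2 at chr7:140955962-140956211 (minus). Isg15 has 3 overlapping matches beginning 78, 72 and 66 bases before the start, and Ifitm2 has 1 at 46 bases.
Isg15: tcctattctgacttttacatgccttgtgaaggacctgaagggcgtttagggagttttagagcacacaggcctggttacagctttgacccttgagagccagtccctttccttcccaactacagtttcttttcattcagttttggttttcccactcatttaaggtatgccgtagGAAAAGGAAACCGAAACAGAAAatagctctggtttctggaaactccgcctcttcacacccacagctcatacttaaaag
Ifitm2: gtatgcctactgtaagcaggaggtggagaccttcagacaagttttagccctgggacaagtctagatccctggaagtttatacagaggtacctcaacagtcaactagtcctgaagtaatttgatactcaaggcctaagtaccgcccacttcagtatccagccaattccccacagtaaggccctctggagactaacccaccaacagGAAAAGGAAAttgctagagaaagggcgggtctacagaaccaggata
These letters occurred in 14 of 29 interferon list genes with a promoter (48.3%) and in 3.46% of all genes. Of the 12 higher genes with a promoter 6 held them.

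Glucocorticoid-responsive genes were higher while the receptor's own message was lower. Of 32 genes 27 were listed and 26 passed the filter, with 17 higher, 0 lower and a median of 0.77; at 1 FPKM or more in both libraries 14 of 21 were higher. Fkbp5, a co-chaperone that restrains the receptor (chromosome 17, 28399095 to 28517524), rose from 11.8 to 35.0 FPKM, a ratio of 2.97 (2.55 to 3.47). Sult1a1, a sulfotransferase in a shared locus, rose from 3.87 to 17.5, Arrdc2, an arrestin-domain protein, from 1.64 to 7.55 (3.46 to 6.38), and Hif3a, a hypoxia-inducible factor, from 0.580 to 4.11 in a shared locus. Further members that were higher included Plin4, a lipid droplet protein, at 0.613 and 3.39, Acer2, a ceramidase, at 2.44 and 7.95, Cebpd, a transcription factor, at 2.28 and 7.33, Map3k6, a stress-activated kinase, at 1.95 and 6.28, and Ddit4, an inhibitor of growth signalling, at 22.8 and 47.1. Those below control were Per1 at 31.7 and 21.2, Dusp1 at 21.1 and 14.04, which neuronal activity also induces, and Bcl6 at 12.3 and 9.41. Among receptors, chaperones and steroid-handling enzymes 2 of 11 were higher and 1 lower. Nr3c1, the glucocorticoid receptor, fell from 24.7 to 15.1 FPKM, 1.63-fold (1.47 to 1.80). Its chaperones Fkbp4 at 61.9 and 45.8, Ptges3 at 40.1 and 28.04 and Hsp90aa1 at 685 and 539 stood below control, as did Crhr1, a receptor of corticotropin-releasing hormone, at 6.74 and 4.77.

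Promoters of Map3k6 and Fam107a are shown as the 2 higher glucocorticoid-responsive genes whose window holds the receptor's palindrome, here the half-sites GNACA and TGTNC with any 3 bases between them, searched on both strands. Fam107a, an actin-bundling protein, rose from 125 to 208 FPKM. The 250-base windows (GRCm38.p6) lie at chr4:133240568-133240817 (plus) for Map3k6, with the match in capitals beginning 181 bases before the start, and at chr14:8309780-8310029 (minus) for 1 of 3 RefSeq starts of Fam107a, with the match beginning at 118 bases.
Map3k6: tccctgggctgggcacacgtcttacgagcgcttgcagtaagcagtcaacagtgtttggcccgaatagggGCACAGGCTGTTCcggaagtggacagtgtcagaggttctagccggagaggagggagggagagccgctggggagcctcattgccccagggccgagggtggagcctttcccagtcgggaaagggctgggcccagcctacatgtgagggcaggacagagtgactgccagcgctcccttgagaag
Fam107a: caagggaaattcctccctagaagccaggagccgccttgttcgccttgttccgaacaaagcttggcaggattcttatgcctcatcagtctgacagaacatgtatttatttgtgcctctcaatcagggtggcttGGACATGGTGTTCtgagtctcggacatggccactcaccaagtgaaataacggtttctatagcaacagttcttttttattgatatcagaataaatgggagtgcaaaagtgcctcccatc
The palindrome occurred in 4 of 26 list genes with a promoter (15.4%) and in 0.44% of all genes.

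Activity-induced genes were lower. Of 37 transcription factor and signalling genes 27 were listed and 26 passed the filter, of which 13 were lower, 1 was higher and 23 were below control (median -0.63). Egr2, a zinc finger factor, fell from 6.15 to 0.787 FPKM, 7.82-fold (5.6 to 10.9), Egr1 from 115 to 51.1 and Egr4 from 23.2 to 10.2, whereas Egr3 was under the rule at 40.7 and 29.5. Fos, a component of AP-1, fell from 26.1 to 8.86, 2.95-fold (2.60 to 3.34), Fosb from 10.1 to 4.82 and Junb from 65.1 to 35.8. The orphan nuclear receptors Nr4a1 and Nr4a3 fell from 50.04 to 20.7 (2.24 to 2.61) and from 16.1 to 5.45 (2.69 to 3.25), while Nr4a2 was at 2.97 and 2.14. Dusp6, a phosphatase that ends ERK signalling, fell from 31.7 to 14.97. Npas4, a factor specific to calcium entry in neurons, was under the rule at 7.45 and 5.09. The higher member was Maff, a small Maf factor, at 0.545 and 2.34.

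Of 17 activity-induced effector genes 5 were lower and 1 higher. Arc, which moves AMPA receptors from the synapse (chromosome 15, 74669083 to 74672570), fell from 76.2 to 21.2 FPKM, 3.60-fold (3.38 to 3.84), with a q of 0.0225 in the authors' deposited table. Homer1, a postsynaptic scaffold, fell from 100.5 to 45.1, 2.23-fold (2 to 2.48), Gpr3, a constitutively active receptor in a shared locus, from 7.24 to 2.56, and Pcsk1, a prohormone convertase, from 19.4 to 11.5. Bdnf, a neurotrophin, stood at 10.8 and 7.94, 1.36-fold lower (1.21 to 1.53), and Vgf, a secreted neuropeptide precursor, at 177 and 127, 1.39-fold lower (1.34 to 1.45), both under the size rule. Pim1, a kinase induced by cytokines as well, was higher at 0.656 and 1.66 in a shared locus. The promoters of Egr2 and Fos are shown because they had the largest falls on the log2(FPKM + 1) scale among genes of the first list with the cAMP response element core TGACGT, which CREB binds. The windows are chr10:67537619-67537868 (plus) for 1 of 5 RefSeq starts of Egr2, with the core on the opposite strand beginning 56 bases before the start, and chr12:85473640-85473889 (plus) for Fos, at 66 bases, both in GRCm38.p6 with the core in capitals.
Egr2: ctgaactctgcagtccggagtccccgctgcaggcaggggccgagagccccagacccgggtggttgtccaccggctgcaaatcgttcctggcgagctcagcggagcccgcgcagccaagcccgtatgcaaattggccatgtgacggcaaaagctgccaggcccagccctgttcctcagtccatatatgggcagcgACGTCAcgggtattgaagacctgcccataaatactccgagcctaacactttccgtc
Fos: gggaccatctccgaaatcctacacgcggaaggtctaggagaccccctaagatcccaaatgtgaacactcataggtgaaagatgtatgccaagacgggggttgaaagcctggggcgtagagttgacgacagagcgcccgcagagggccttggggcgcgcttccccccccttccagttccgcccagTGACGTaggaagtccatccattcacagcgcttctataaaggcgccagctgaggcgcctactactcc
The core, on either strand, occurred in 22 of 52 genes of the 2 lists with a promoter (42.3%) and in 7.29% of all genes. Of the 14 lower genes with a promoter 6 held it.

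**Figure D3:**
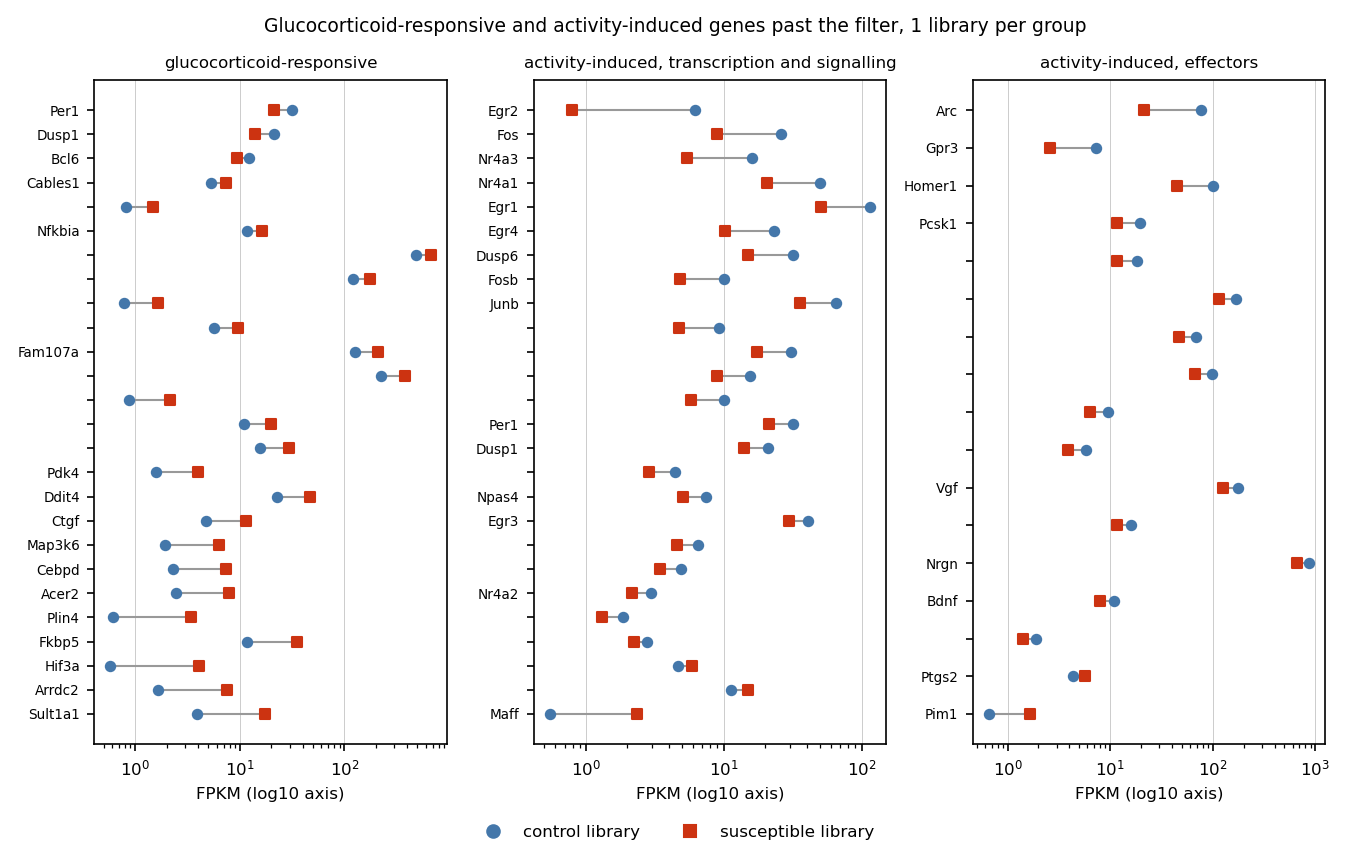
FPKM (x, log10 axis) in the control library (blue circles) and the susceptible library (red squares) for genes past the filter in 3 lists, ordered by difference, with labels for genes named in the text. In the glucocorticoid panel 23 of 26 squares lie right of their circles, from Cables1 to Sult1a1; in the panel of activity-induced transcription and signalling genes 23 of 26 lie left, with Egr2 farthest, and in the effector panel all but Ptgs2 and Pim1 lie left.

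Neuron classes differed within themselves. Of 14 interneuron genes past the filter 5 were higher and 2 lower. Vip, the peptide of disinhibitory interneurons, rose from 12.7 to 27.2 FPKM, a ratio of 2.14 (1.85 to 2.48), and Htr3a, the serotonin channel of the same broad class, from 0.894 to 3.16 (2.24 to 5.74). Calb2, calretinin, rose from 4.70 to 9.07, and Adarb2, an RNA-binding marker of that class, from 1.36 to 3.11 in a shared locus. Pvalb, the calcium buffer of fast-spiking basket cells, fell from 33.1 to 19.5, 1.69-fold (1.46 to 1.97), and Cck, cholecystokinin, from 991 to 654 FPKM. Gad1, which makes GABA in all of them, stood at 104 and 82.3 in a shared locus, and Gad2 and Sst were not listed. The list median of 0.40 became -0.33 at a mean of at least 5 FPKM.

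Among 7 upper-layer genes 3 were higher and 0 lower, 2 of 6 without the gene under 1 FPKM in control. Cux2, a layer 2 to 4 transcription factor, rose from 9.45 to 18.6 FPKM (1.80 to 2.16), Wfs1, an endoplasmic reticulum protein, from 18.7 to 41.7 (2.06 to 2.41), and Otof, the vesicle protein otoferlin, from 0.754 to 3.42 (3.54 to 5.88), with a q of 0.0225 in the authors' deposited table. Rorb, the layer 4 nuclear receptor, stood at 3.45 and 2.003. Of 15 deep-layer genes 5 were higher and 4 lower, and of the 13 at 1 FPKM or more in both libraries 3 were higher and 4 lower. The higher ones were Cplx3, a complexin, at 0.556 and 3.30, Nxph4, a neurexin ligand, at 0.277 and 1.82, Ctgf, a matrix signalling protein, at 4.74 and 11.6 in a shared locus, Ntsr1, a neurotensin receptor, at 1.69 and 3.46, and Sulf1, a sulfatase, at 5.18 and 8.92. The lower ones were Bcl11b, which specifies subcerebral projection neurons, at 26.9 and 16.6, Etv1 at 27.3 and 17.4, Pcp4, a calmodulin regulator in a shared locus, at 689 and 453, and Rxfp1, a relaxin receptor in a shared locus, at 12.4 and 6.17. Of 16 general excitatory genes 5 were listed, with 1 higher and 1 lower. Bhlhe22 rose from 13.3 to 21.1 FPKM (1.44 to 1.74), and Neurod6 fell from 87.1 to 53.3 FPKM.

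Striatal list genes past the filter were mostly higher. Of 23 striatal and ventral forebrain genes 16 were listed and 10 passed the filter, with 8 higher and 0 lower, and of the 7 at 1 FPKM or more in both libraries 5 were higher. Penk, enkephalin precursor, in a shared locus, stood at 5.93 and 15.9 FPKM, Ppp1r1b, the dopamine signalling protein DARPP-32, in a shared locus, at 29.9 and 59.1, Drd2 at 0.558 and 2.44 (2.66 to 7.4) and Adora2a at 0.686 and 2.11. The list summed to 80.6 and 138 FPKM, Drd1 was not listed, and Tac1 stood at 24.1 and 19.0. Of 10 listed olfactory genes 4 passed the filter, 2 of them higher. The part of differing tissue borders in the layer, interneuron and myelin values was not tested.

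**Figure D4:**
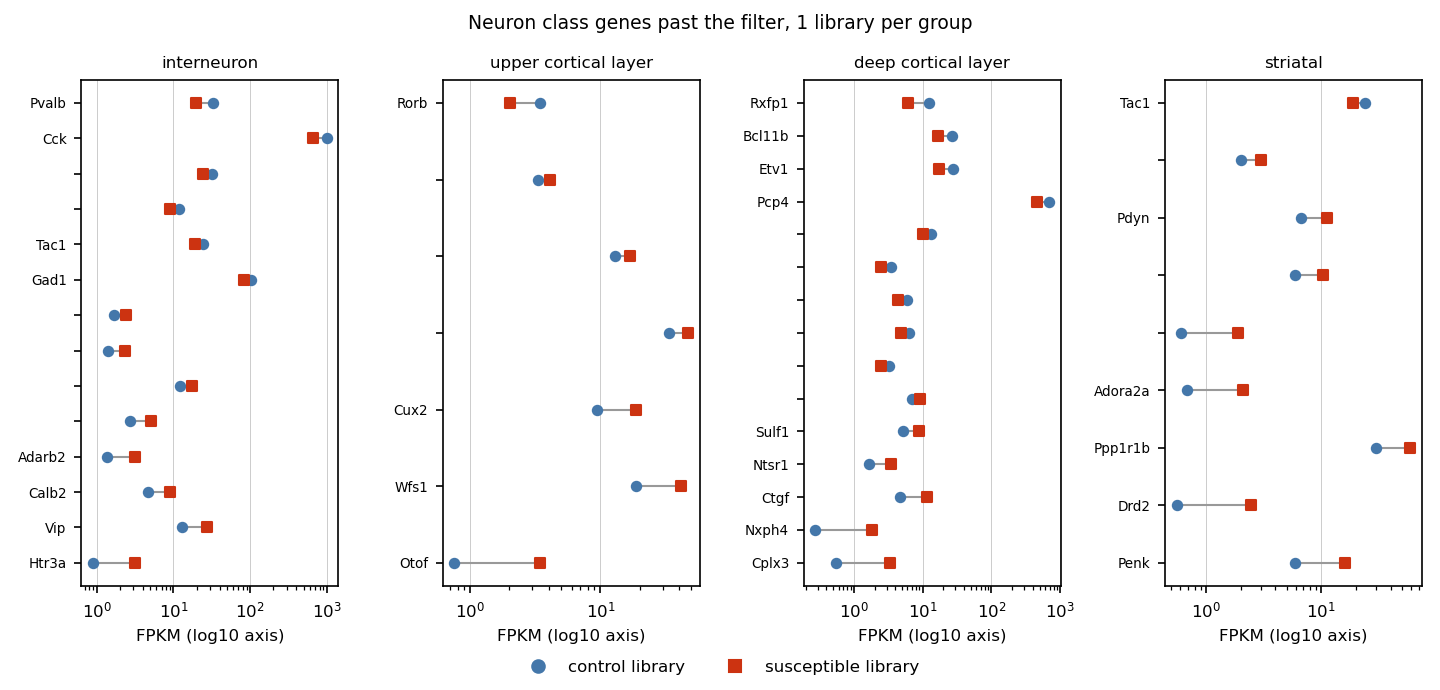
FPKM (x, log10 axis) in the control library (blue circles) and the susceptible library (red squares) for genes past the filter in 4 lists of neuron class markers, ordered by difference, with labels for genes named in the text and a few genes not shown. Pvalb and Cck lie lower and Vip and Htr3a higher in the interneuron panel; Cplx3, Nxph4 and Ctgf lie higher and Rxfp1 lower in the deep-layer panel; the striatal genes shown lie higher, except Tac1.

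Listed synaptic, receptor and channel genes were mostly below control and mostly under the size rule, but many members of these lists have no value here. Listed were 6 of 24 glutamate receptor genes, 6 of 18 GABA genes and 26 of 53 potassium channel subunits. The same held for 12 of 32 sodium and calcium channel subunits, 11 of 33 release genes and 8 of 32 postsynaptic genes. None of the 6 listed glutamate receptor genes was called and all 6 were below control, among them Grin2a, an NMDA receptor subunit, at 23.4 and 17.8 FPKM and Gria4, an AMPA receptor subunit, at 30.7 and 24.1. Of 6 genes of GABA signalling 1 was lower, Gabra3, a GABA-A receptor subunit in a shared locus, at 109 and 64.4. Of 25 potassium channel subunits 3 were lower and 1 higher, with 21 below control: Kcng1, a modifier subunit, fell from 24.6 to 13.3 and Kcna6 and Kcna3, both in shared loci, from 40.3 to 23.7 and from 13.5 to 8.41, while Kcnab1, an auxiliary subunit in a shared locus, stood at 32.9 and 51.5. All 11 sodium, calcium and HCN channel subunits were below control and 3 were lower: Scn4b, an auxiliary sodium channel subunit, at 12.1 and 6.53 (1.68 to 2.05), Cacna1i, a T-type calcium channel, at 23.2 and 12.9, and Cacnb4, in a shared locus, at 827 and 393. Of 11 release genes 2 were lower and 1 higher, Syt2, a fast calcium sensor in a shared locus, at 7.74 and 4.03, Rab3c, a vesicle GTPase, at 109.8 and 65.6, and Cplx3, given above. Of 8 postsynaptic genes 2 were lower, Homer1 and Lrrtm2, an adhesion protein in a shared locus, at 27.0 and 17.3, and the Shank scaffolds Shank1 and Shank3, in shared loci, stood at 124 and 87.0 and at 36.3 and 26.7. Among neuropeptides Penk, Vip, Nmb, Tac2 and Pdyn were higher and Cck lower, with a list median of -0.28 that became 0.13 without the filter. Of 13 serotonin, dopamine, adrenergic and cholinergic receptors 2 were higher, Htr3a and Drd2, both under 1 FPKM in control.

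All 8 listed mitochondrially encoded genes were below control and 3 were lower: mt-Atp8 at 18200 and 9207 FPKM in a shared locus, mt-Nd4l at 12190 and 7747 and mt-Nd3 at 6327 and 4020. Of 14 listed nuclear respiratory chain genes of 61 in the list 4 were lower, 1 was higher and 2 were above control. Atp5b, the catalytic subunit of ATP synthase, fell from 2779 to 1587 FPKM, 1.75-fold (1.73 to 1.77), and Sdha, of complex II, from 515 to 337, while Uqcrq, of complex III, rose from 143 to 221. Of 19 listed cytosolic ribosomal protein genes of 76 in the list 3 were higher and 17 were above control, led by Rps20 at 38.5 and 66.7, and these genes have many processed pseudogenes that can share fragments. Of 32 genes of glycolysis, lactate and ketone metabolism 13 were listed and 12 passed the filter, with 7 above control and 4 higher. Among the higher were Pdk4, which shuts glucose out of the citric acid cycle, at 1.59 and 3.98 FPKM, Slc2a1 and Aldoc. Of 14 metallothionein, iron and redox genes 7 were higher and 1 lower. Fth1, the ferritin heavy chain that stores iron, rose from 1487 to 2834 FPKM (1.86 to 1.95), Trf, the iron carrier made by oligodendrocytes, from 28.3 to 63.9 in a shared locus, and Hmox1, which breaks down heme, from 2.38 to 4.76. Slc40a1, ferroportin, the iron exporter, fell from 3.25 to 1.396, 2.33-fold (1.79 to 3.01).

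Calls in smaller groups varied. Of 28 heat shock and unfolded protein genes 12 were listed and 11 passed the filter, with 0 higher and 1 lower. The lower one was Dnajb5, a co-chaperone, at 93.5 and 49.5 FPKM, and the endoplasmic reticulum chaperone Hspa5 stood at 125 and 83.7. Of 21 clock genes 9 were listed, all past the filter, and 1 was lower, Per2, at 10.9 and 6.10. In the hypoxia and angiogenesis list 4 of 12 were higher, Hif3a, Slc2a1 and Ndrg1, all in shared loci, and Adm. The 2 lower ones were Apln, the endothelial peptide apelin, at 5.46 and 2.13 and Bnip3, a mitophagy receptor, at 156 and 99.7. The list median of 0.33 became -0.33 without genes of shared loci and -0.06 with at least 1 FPKM in both libraries. Of 12 Wnt, TGF-beta, BMP and Notch genes 3 were higher and 1 lower, Wnt7b, a cortical Wnt ligand, at 24.9 and 12.8. Cdyl, the corepressor studied in the other pair, stood at 1.98 and 2.54 FPKM, a ratio of 1.28 with limits of 0.992 and 1.65 that include no difference. In the list of Cdyl with its partners and relatives 8 of 22 genes were listed and 7 passed the filter, with 1 higher. This was Mier1, a corepressor scaffold, at 7.86 and 34.9, and Cdyl2 was at 7.56 and 5.15. Of 4 histone genes 1 was higher, Hist1h4h, at 1.95 and 8.54 (ratio 1.95 to 10).

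**Figure D5:**
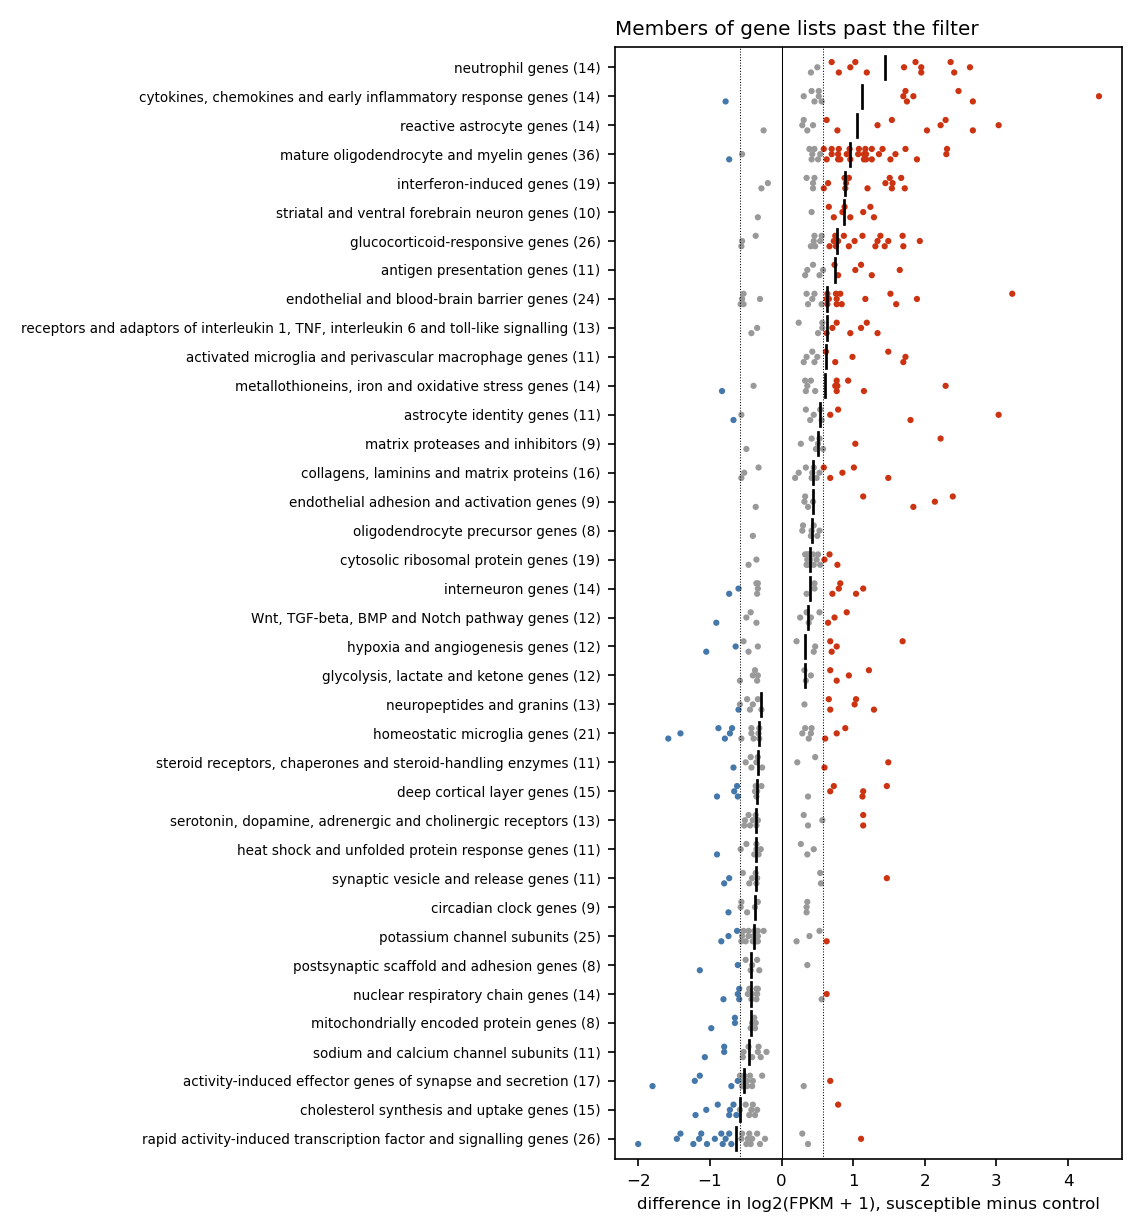
Differences in log2(FPKM + 1), susceptible minus control (x), for the members past the filter of each list with at least 8 of them (number in brackets); red points are higher and blue points lower by at least 1.5-fold, grey points neither, black bars are medians and dotted lines the 1.5-fold limits. Neutrophil, reactive astrocyte, myelin, interferon and glucocorticoid lists lie to the right and activity-induced, cholesterol and ion channel lists to the left; several low lists are to the right partly through genes under 1 FPKM in control, as counted in the text.

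The authors' deposited table gives a q under 0.05 for 41 genes, 35 higher (0.284% of 12318) and 6 lower (0.0487%). The lower ones in the authors' deposited table were Arc, Nr4a1, Nr4a3, Msmo1, Rnf152 and Rn18s-rs5. Rnf152, a lysosomal ubiquitin ligase in a shared locus, stood at 5.88 and 2.31 FPKM. Of the 35 higher genes 11 were listed at 0 in control, among them Thbs4, a thrombospondin, at 3.41 in susceptible, Hcar2, a receptor of niacin and ketone bodies, at 0.820, Irg1, the itaconate synthase of activated macrophages, at 1.07, and Tgm1, a transglutaminase, at 0.581. No list used here held 12 of the calls in the authors' deposited table. Of those, Podxl, a sialomucin of vessels and neurons, rose from 5.50 to 16.4 FPKM (2.68 to 3.33), Etnppl, an astrocyte enzyme that breaks down phosphoethanolamine, from 8.71 to 26.7 (2.58 to 3.65), Necab2, a neuronal calcium-binding protein, from 8.05 to 30.8 (3.30 to 4.46), and Txnip, a thioredoxin inhibitor induced by glucose and glucocorticoids, from 2.96 to 11.2 in a shared locus. Gfap, Saa3 and P2ry12, which have large differences above, had q values of 0.999 in the authors' deposited table. These q values come from a comparison of 1 library with 1 library and carry no replicate information.

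The second pair of libraries was used to look at the same genes with other animals. There, 3308 of 7454 genes past the same filter (44.4%) were higher or lower with AAV-CDYL than with AAV-GFP by the same size rule, against 28.0% in the stress pair. Of these 3308 genes 2193 were higher and 1115 lower, and the stress pair, with 860 and 515, also leaned to higher values. At a mean of at least 5 FPKM in both tables, 320 genes were at least 1.5-fold apart in both. Of these, 190 were higher in both, 106 lower in both, 10 higher in susceptible but lower with CDYL, and 14 the reverse. Neither table lists every gene, and no share over all genes at this level is given beside these counts. Whether the shared directions exceed what the common lean to higher values would give was not tested. Many of the largest opposite differences were in pseudogenes and other non-coding features. The pseudogenes Gm10357, Gm20689, Gm43110, Gm6265 and Gm7329 were higher in susceptible but lower with CDYL. The pseudogene Gm13192, Mir1897 and the antisense gene Rab26os had the reverse pattern. Genes with opposite directions also included microglial Trem2 and Siglech, both lower in susceptible. Trem2 stood at 8.33 FPKM with GFP and 70.7 with CDYL, and Siglech at 6.06 and 23.9. Gjb6, higher in susceptible, stood at 44.7 with GFP and 19.5 with CDYL. Mobp and Arc had the same direction in both, with log2 differences of 2.30 and -1.80 in the stress pair and 2.21 and -0.64 in the AAV pair. Cdyl itself differed by 0.25 and 8.16. The pairs were normalized separately and have different treatments, and whether their differences differ was not tested.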

How the data were processed

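Libraries of the stress comparison were built with the NEBNext Ultra kit, 1 µg of total RNA each, per the labels' protocols. The authors deposited FPKM values for both libraries in 1 table, made with Cuffdiff on mm10 per the submitters' processing notes; which aligner and gene models they used is not given in the sources used here. The p-values and q-values in that table are the authors' deposited ones and compare 1 library with 1 library. The deposited log2 fold column was not used. Columns were matched to samples by title, and 0 per-sample columns were left unmapped. Values under 1e-06 were read as 0.

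From the FPKM values, differences of log2(FPKM + 1) were computed, with a filter on a mean of at least 1 FPKM and a size rule of 1.5-fold. With 1 library per group no test was possible and no p-value was computed. Depth came from the spacing of low FPKM values in genes with 1 transcript of 3 to 20 kb (GENCODE M21); up to 4.5 spacings, 92.9% of control and 92.5% of susceptible values were whole within 0.15. This depth includes the authors' scaling. Counting intervals used the shortest coding transcript less 200 bases, which gives the widest limits. About 28.9% of genes past the filter share a Cuffdiff locus with another listed gene, where fragments cannot be assigned with certainty; the kit is not stated to keep strand, so the same holds for antisense genes. Promoters were taken from RefSeq (GRCm38.p6).

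The 55 gene lists and the members were chosen with earlier results of these data known. The rule for named genes took Cdyl, Vgf and Bdnf, defining cell markers, the lipocalins Apod, Lcn2 and Ptgds, the 12 largest differences in each direction at a mean of at least 5 FPKM among genes with no Gm, Rik or LOC name, the 4 largest per list, the genes with q under 0.05, the 6 largest of each opposite pattern between the tables and the 8 highest genes listed at 0 in 1 library per direction, 251 genes in all. Some genes that the rule takes are not reported here. Other list members named in the text were chosen after their values were seen. Alternatives were other pseudocounts, filters, scalings and size rules and leaving out shared loci. The size rule was tested on simulated data with counting noise alone, no spread between animals and unchanged genes kept in. That test cannot show how reliable the calls are for 1 library per group. The work used Python 3.11.15 (pandas 2.3.3, numpy 2.4.6, matplotlib 3.10.9 and scipy 1.17.1).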

Additional observations from a re-analysis of the deposited data

How the results depend on the processing

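No paired analysis was possible because each group has 1 library, and no library could be left out for the same reason. The counts of 860 higher and 515 lower genes moved by over 1.5 times under 4 of the alternatives. A mean of at least 5 FPKM gave 398 higher genes, a 2-fold rule gave 304 higher and 109 lower, centring on the median gave 469 and 1567, and a common upper quartile gave 306 lower. The shift under centring follows from the missing genes under 1.25-fold, which leave the median at the edge of a gap; the cause of the upper-quartile shift was not tested. Over genes at 1 FPKM or more in both libraries, an alternative added after seeing the data, the counts were 627 and 446, and over protein-coding genes, added likewise, 659 and 410. Of 47 lists with at least 5 genes past the filter, 13 had a median at or past 1.5-fold, 12 of them positive, and none of the 13 changed sign under any alternative run. The 5 lists that did change sign are homeostatic microglia, interneurons, neuropeptides, hypoxia, given with their values above, and glycolysis (-0.34 at a mean of at least 5 FPKM). Of the 251 named genes none past the size rule changed sign, while 50 moved by over 1.5 times under centring and 50 with a pseudocount of 0.1. Depth limits statements on genes near 0, where 3 fragments in 2 kb correspond to 0.105 FPKM in control and 0.0652 in susceptible.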

Other observations

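All genes in this paragraph lie outside the lists and were chosen after their values were seen, so they stand for no pathway or family. Ivd, isovaleryl-CoA dehydrogenase of leucine breakdown, was at 21.7 FPKM in control but 41.6 in susceptible (ratio 1.79 to 2.06), Aldh6a1, of valine breakdown, at 12.04 and 24.7 (1.86 to 2.26), Dbt, of the branched-chain dehydrogenase complex, at 4.44 and 9.62 (1.85 to 2.55), and Bckdk, the kinase that inhibits that complex, at 12.3 and 21.03. Of the glutathione transferases, Gstm1 stood at 61.4 and 119 (1.77 to 2.14), Gstm7 at 8.89 and 22.3 (1.93 to 3.32) and Gstt1 at 4.90 and 10.6, although the Gstm genes are close paralogs. Nkx6-2, a transcription factor of myelinating oligodendrocytes, stood at 1.39 and 6.96 (3.18 to 8.14), and Tspo, a mitochondrial protein used as an imaging marker of gliosis, at 5.39 and 11.3 (1.52 to 2.96). Among abundant neuronal genes, Anks1b, a postsynaptic scaffold, stood at 476 and 215, Gng2, a G protein subunit, at 243 and 112, and Nsmf, a messenger from synapse to nucleus, at 413 and 191. Eif4a1, a translation initiation helicase, stood at 137 and 328 (2.30 to 2.50).

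Among features other than protein-coding genes, processed pseudogenes leaned to higher values while other large types were near even. Of 276 processed pseudogenes past the filter 113 were higher and 31 lower, against 659 and 410 of 4201 protein-coding genes. Of 114 long intergenic RNAs 19 were higher and 17 lower, of 105 antisense genes 21 and 19, and of 72 processed transcripts 13 and 13. The highest genes listed at 0 in control were the small nuclear RNA genes Gm24407, at 215 FPKM in susceptible, and Gm23971, at 99.5, and the pseudogene Gm14567, at 88.2. The highest listed at 0 in susceptible was the pseudogene Gm16418, at 145 in control. Each of these features at 0 in 1 library spans under 200 bases, the length taken off transcripts above, so a few fragments can give a high FPKM. Each had a q of 0.999 in the authors' deposited table. Of 7 genes past the filter on the Y chromosome 6 were higher by the size rule; Kdm5d stood at 3.54 and 5.86 FPKM and Uty at 4.39 and 3.27.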
